A study of Gallus gallus with 5 samples.

Results

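The genes described here encode 10 secreted glycoproteins and proteoglycan partners of the extracellular matrix: SMOC1, SMOC2, SPARC, EFEMP1, FBN1, FBN2, TNC, FN1, VCAN and HAPLN1. They were followed through the formation of the chick otic placode, the patch of surface ectoderm that folds inwards to form the inner ear. Members were found by gene symbol, and each of the 10 symbols stood on at least 1 locus of the deposited tables. FBN2 stood on a pair of loci, which brings the total to 11 loci of the 18365 loci with a count. The set was chosen by its name and by measured values together: SMOC1 and EFEMP1 were selected on their rise at the later steps, so those rises are given below as a description. No test was possible for any value because each condition was 1 library.

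Poly(A) RNA was sequenced from embryos of the Bovans Brown breed in 5 libraries. The posterior pre-placodal region at stage HH6 (PPR) is ectoderm that can still give rise to several sense organs. Otic-epibranchial progenitors at 5-6 somites (OEPs, 5-6ss) are the shared precursors of the inner ear and of the neighbouring epibranchial ganglia. The otic placode was taken when thickened, at 8-9ss, and when invaginating, at 11-12ss. Entire embryos with 3 somites (3ss) served as the reference. None of the groups carried a treatment or a transgene. Placodes from many embryos were pooled for each stage, so a library is 1 pool of dissected tissue and not 1 animal. The ectoderm was freed of the underlying germ layers by enzyme-assisted microdissection.

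Matrix glycoproteins are secreted into the sheet that lies beneath an epithelium and into the spaces between tissues. Fibronectin (FN1) forms fibrils to which cells attach through integrins. Fibrillins (FBN1, FBN2) form microfibrils that also hold growth factors of the TGF-beta family in store. Versican (VCAN) is a large chondroitin sulphate proteoglycan that binds hyaluronan, and the link protein HAPLN1 steadies that bond. Matricellular proteins such as SPARC, its relatives SMOC1 and SMOC2, and tenascin-C (TNC) contribute little to structure and instead alter how cells adhere and respond to growth factors. SMOC1 is known in frog embryos as an antagonist of BMP signalling. EFEMP1, also called fibulin-3, is a fibulin found near elastic fibres and basement membranes. In the embryo the otic placode rests on a basement membrane facing the hindbrain and the head mesenchyme.

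Total counts ranged from 26858887 in OEPs to 136916870 in the PPR, a 5.10-fold difference in depth. The 10 otic and placode marker genes summed to between 69527 and 89544 normalized counts in the libraries from 5-6ss onwards, against 11465 in the PPR and 7786 in the whole embryo, and all 10 were past the expression levels in each of those 3 otic libraries. Normalized counts are counts divided by a size factor for the library, the median ratio of its genes to their average over the libraries. Calls of higher and lower required that the normalized count differed more than 1.5-fold and that the library with more had an RPKM (reads scaled by transcript length and library size) above 4 and a normalized count above 300, which are the expression levels of the study's methods. The 95% intervals given with fold changes are exact binomial intervals of the 2 counts, cover counting error only, and say nothing of how embryos or dissections vary. In bulk tissue, fewer cells that express a gene and less RNA in each of those cells cannot be told apart.

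**Figure D1:**
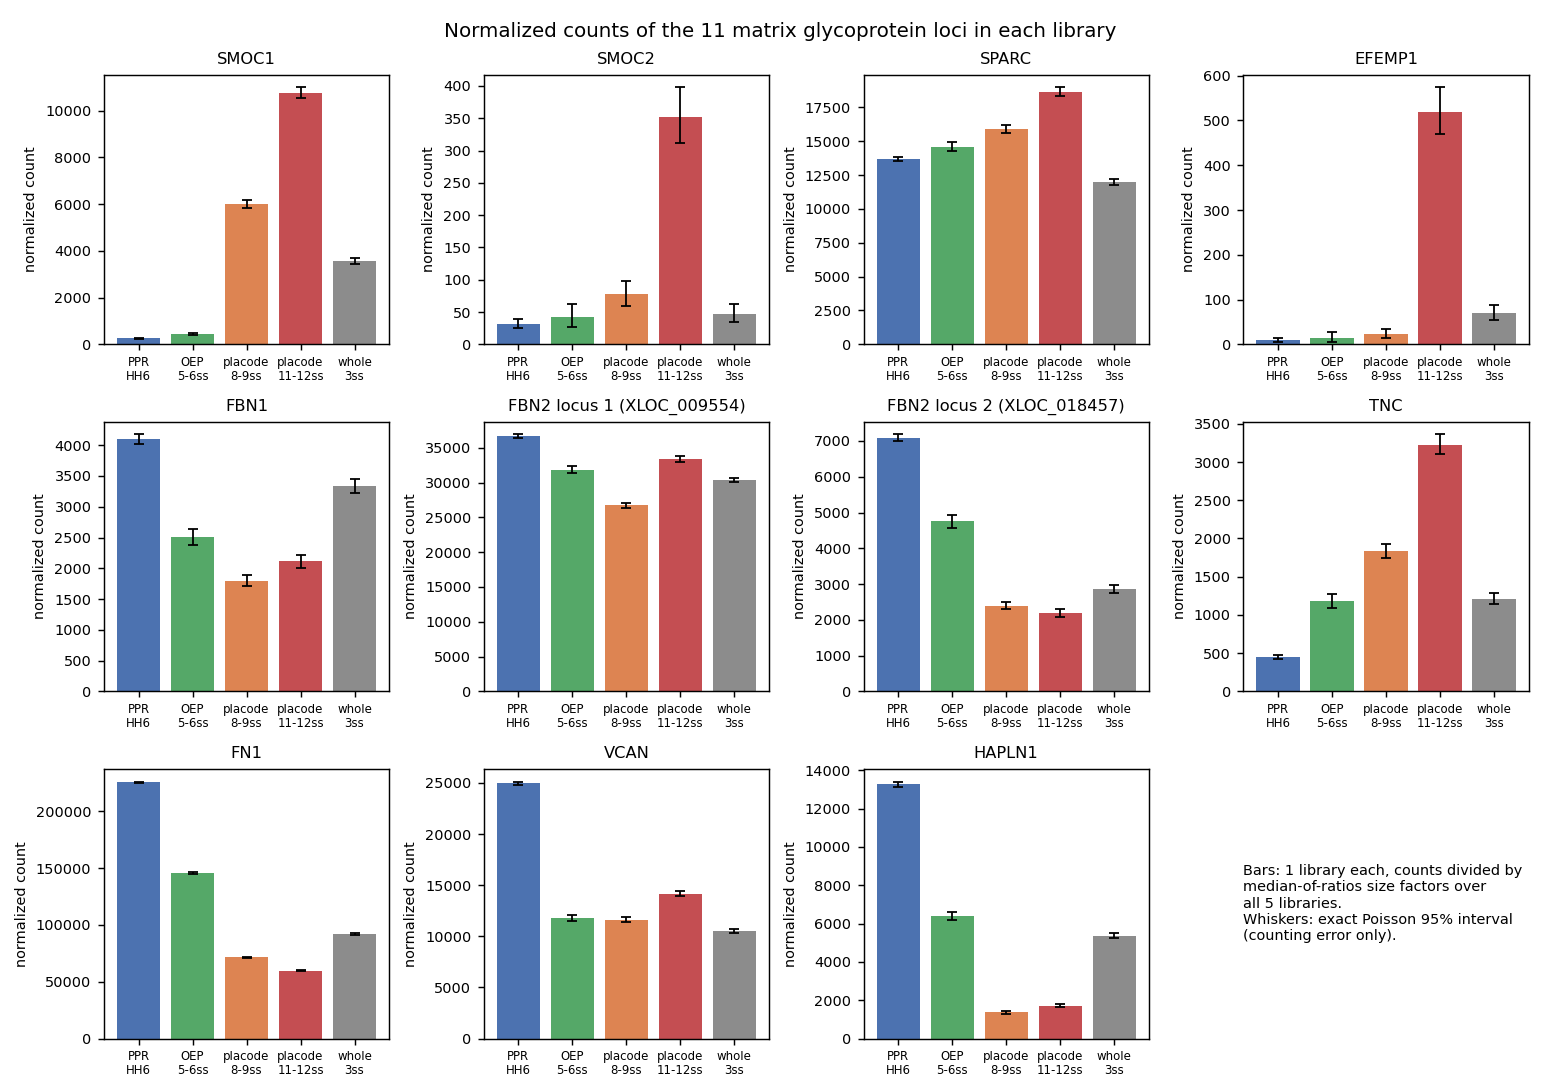
Normalized counts (vertical axis, from 0, own scale in each panel) of the 11 loci in each of the 5 libraries, 1 bar a library, with exact Poisson 95% intervals as whiskers. SMOC1, SMOC2, SPARC, EFEMP1 and TNC stood highest at 11-12ss, whereas FBN1, both FBN2 loci, FN1, VCAN and HAPLN1 stood highest in the PPR.

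SMOC1 went from below the expression level set for calls to the third highest RPKM of the members at 11-12ss. Its normalized count, scaled over all 5 libraries, was 253 in the PPR, 441 in OEPs, 6002 at 8-9ss, 10752 at 11-12ss and 3568 in the whole embryo. The PPR and OEP libraries were thus low, the placode libraries were high, and the whole embryo lay between them. Rescaled for each pair of libraries, SMOC1 was 1.73-fold higher in OEPs than in the PPR (1.49 to 2.0), with an RPKM of 3.15 that kept it under the level for a call. It was then 13.7-fold higher at 8-9ss than in OEPs (12.1 to 15.7) and a further 1.78-fold higher at 11-12ss (1.72 to 1.84), both called. Against the whole embryo SMOC1 changed side: it was 14.0-fold lower in the PPR (13.0 to 15.2) and 8.14-fold lower in OEPs (7.15 to 9.31), but 1.68-fold higher at 8-9ss (1.61 to 1.75) and 2.97-fold higher at 11-12ss (2.85 to 3.09).

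Markers of paraxial and head mesoderm moved in both directions at the step at which SMOC1 gained most. Of the 12 genes listed, 8 had a locus, and their summed normalized count was 2385 in OEPs and 2297 at 8-9ss, of which FOXC2, the only one past the levels, held 1560 and 1608. Below the levels, TCF15 was 5.02-fold higher (2.74 to 10.1) and SIX2 1.90-fold higher (1.39 to 2.64) at 8-9ss, and PDGFRA was 2.39-fold lower (1.99 to 2.88). The endoderm list (4 of 6 genes with a locus) went from 4039 to 1018 at that step, most of it APOA1, an apolipoprotein gene. The part of these cells in the SMOC1 difference was not tested.

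The relative SMOC2, which encodes a protein of the same build as SMOC1, was far scarcer. Its counts were 92 in the PPR, 23 in OEPs, 66 at 8-9ss, 264 at 11-12ss and 48 in the whole embryo. Corrected for depth, only the 11-12ss library stood clearly above the rest, with a normalized count of 353 against 31.8 to 77.7 in the other 4 libraries. The difference between 11-12ss and 8-9ss was 4.51-fold (3.43 to 6.00), and that between 11-12ss and the whole embryo was 7.34-fold (5.38 to 10.2). Neither was called. The RPKM at 11-12ss was 3.997, just short of 4, and the normalized count rescaled for the pair with 8-9ss was 280, short of 300 as well, whereas in the pair with the whole embryo it was 305. Per length, SMOC1 exceeded SMOC2 by 6.03-fold in the PPR, 6.19-fold in OEPs, 39.6-fold at 8-9ss, 17.5-fold at 11-12ss and 53.8-fold in the whole embryo.

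SPARC, the collagen-binding founder of this family, was abundant in all 5 libraries and varied little. Its normalized counts were 13702 in the PPR, 14582 in OEPs, 15898 at 8-9ss, 18660 at 11-12ss and 11997 in the whole embryo, so the highest library exceeded the lowest by 1.56-fold. Its changes of 1.06-, 1.10- and 1.16-fold over the 3 steps were all under the threshold. It was called only at 11-12ss against the whole embryo, at 1.53-fold (1.5 to 1.57), a value on the threshold that was not called when libraries were scaled by total count. SPARC was thus near constant, whereas SMOC1 changed strongly. SMOC2 was scarce, with its highest library 11.1-fold above its lowest.

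EFEMP1 was close to undetected until the last stage. Its counts were 27 in the PPR, 8 in OEPs, 19 at 8-9ss, 389 at 11-12ss and 71 in the whole embryo. These correspond to normalized counts of 9.32, 14.5, 22.4, 520 and 70.0, with the 11-12ss library alone past the expression levels. From 8-9ss to 11-12ss EFEMP1 went up 23.1-fold (14.6 to 38.7), and at 11-12ss it stood 7.31-fold higher than in the whole embryo (5.66 to 9.55). The earlier steps gave 1.55-fold (0.607 to 3.50) and 1.56-fold (0.650 to 4.11), intervals that hold both a fall and a rise, so no difference was detectable at this depth. With all libraries thinned to the smallest total, EFEMP1 at 11-12ss dropped under the count level and was no longer called.

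Some mesenchymal genes were also higher in the 11-12ss library. The mesoderm list summed to 3946 normalized counts there against 2297 at 8-9ss, 1.71-fold more, and 2 of its 3 loci past the levels were called higher, PRRX1 (8.02-fold, 6.32 to 10.3) and SIX2 (3.17-fold, 2.63 to 3.82). The other, FOXC2, was the most abundant of the list, at 1608 at 8-9ss and 1493 at 11-12ss, and was not called. TWIST1 counts were 53 at 8-9ss and 149 at 11-12ss, and PDGFRA counts were 196 and 548, both under the levels. TBX6, which marks paraxial mesoderm, had 9 and 7 counts in these libraries against 12018 in the whole embryo, and MEOX2 had 0 counts in OEPs, at 8-9ss and in the whole embryo and 6 at 11-12ss. The list summed to 20523 in the whole embryo, of which TBX6 held 11856, and to between 912 and 3946 in the 4 ectoderm libraries. Of its 6 loci past the levels at 11-12ss against the whole embryo, 4 were called lower and 2 higher. The higher ones were SIX2 (11.5-fold, 8.62 to 15.7) and PRRX1 (1.58-fold, 1.40 to 1.79). The blood and vessel list (4 of 8 genes with a locus) summed to 2144 at 8-9ss and 3838 at 11-12ss, and the neural crest list (4 of 7) to 3282 and 4877. Within the crest list only SOX5 was called higher, with normalized counts of 965 and 1940. SOX9 was not called at 1184 and 1551, SNAI2 was level at 1021 in both, and TFAP2B was below the levels at 112 and 366. The part of these cells in the rise of EFEMP1, SMOC2, SMOC1 and TNC at 11-12ss was not tested.

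The loci whose profile over the 5 libraries lay nearest to that of EFEMP1 were TBX2, LUM and PRRX1. Likeness was measured as the distance between log2 normalized counts, each centred on its own mean. The search covered 8531 loci that had a symbol and were past the expression levels in at least 1 library. TBX2, a T-box transcription factor, lay at a distance of 0.76, with normalized counts of 29.3, 52.6, 119, 2493 and 202 in the order PPR, OEPs, 8-9ss, 11-12ss and whole embryo. LUM, the collagen-binding proteoglycan lumican, lay at 1.70 with normalized counts of 10.7, 41.7, 89.4, 530 and 110 in the same order. PRRX1, a homeobox gene of limb and head mesenchyme, lay at 1.89. All of them had their highest value at 11-12ss, a likeness to EFEMP1 for which they were picked.

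**Figure D2:**
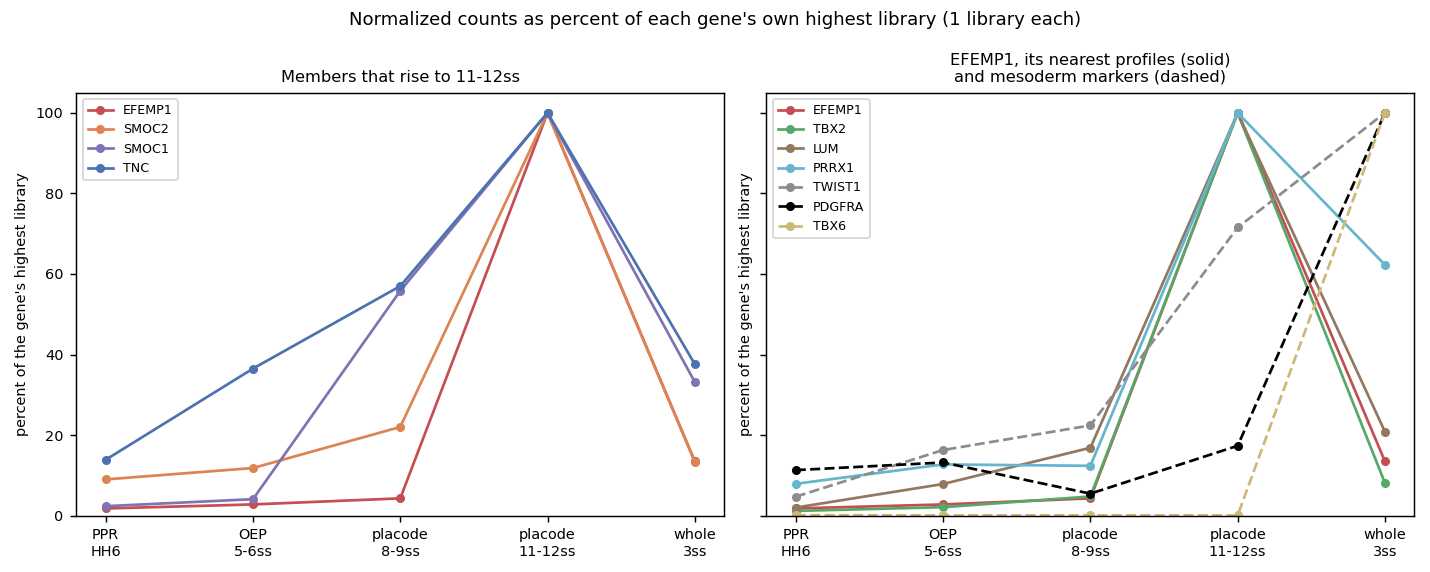
Normalized counts in percent of each gene's own highest library (vertical axis) over the 5 libraries, 1 point a library, for SMOC1, SMOC2, EFEMP1 and TNC (left) and for EFEMP1 with its 3 nearest profiles and markers of mesoderm (right). EFEMP1 stayed low up to 8-9ss, at a normalized count of 22.4 against 520 at 11-12ss, whereas SMOC1 had already reached 6002 of its 10752 at 8-9ss.

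The profiles nearest to SMOC1 were those of SCARNA7 at a distance of 0.96, FGF18 at 1.59 and SRGAP1 at 1.6. FGF18, a fibroblast growth factor, had normalized counts of 24.2 in the PPR, 109 in OEPs, 1058 at 8-9ss, 1834 at 11-12ss and 221 in the whole embryo. SRGAP1, a GTPase-activating protein of the Slit and Robo pathway, had 171, 751, 2709, 4781 and 2019 in the same order. SCARNA7 is a small Cajal body RNA of a class that usually lies in introns of other genes, so its reads may belong to a host transcript. In each of these loci, as in SMOC1, the value at each stage was above that at the stage before, a likeness for which they were picked.

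TNC, the adhesion-modulating tenascin-C, was the only member called higher at all 3 steps. Its normalized counts were 448 in the PPR, 1179 in OEPs, 1840 at 8-9ss, 3229 at 11-12ss and 1214 in the whole embryo, with each stage above the one before. It rose 2.61-fold from the PPR to OEPs (2.38 to 2.88), 1.58-fold to 8-9ss (1.44 to 1.73) and 1.74-fold to 11-12ss (1.63 to 1.86). The middle step was not called with deposited RPKM. At the first step the RPKM of TNC in OEPs was 4.19, just over the level of 4. Once the RPKM level was dropped, SMOC1 was called higher at that step too, and so at all 3 steps. Against the whole embryo TNC was 2.70-fold lower in the PPR (2.50 to 2.93), indistinguishable in OEPs by counting error (1.04-fold lower, 0.941 to 1.14), 1.51-fold higher at 8-9ss (1.40 to 1.63, not called when scaled by total count or with deposited RPKM) and 2.62-fold higher at 11-12ss (2.44 to 2.81).

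FN1, the fibronectin gene, took the opposite course. Its normalized counts were 225635 in the PPR, 145608 in OEPs, 71630 at 8-9ss, 59887 at 11-12ss and 91988 in the whole embryo. Each stage was lower than the one before, and the 2 placode libraries fell below the whole embryo. FN1 fell 1.56-fold from the PPR to OEPs (1.55 to 1.57) and 2.01-fold from OEPs to 8-9ss (1.99 to 2.04), and the last step was 1.21-fold down, under the threshold. Against the whole embryo it was 2.46-fold higher in the PPR (2.44 to 2.48) and 1.57-fold higher in OEPs (1.56 to 1.59), then 1.29-fold lower at 8-9ss, which was not called, and 1.56-fold lower at 11-12ss (1.54 to 1.58). The OEP value was not called when libraries were scaled by total count. Since FN1 and TNC went opposite ways, the RPKM of FN1 was 350 times that of TNC in the PPR, 86.7 times in OEPs, 29.4 times at 8-9ss and 14.3 times at 11-12ss.

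HAPLN1, the hyaluronan link protein, fell most of the members. Its normalized counts were 13281 in the PPR, 6384 in OEPs, 1368 at 8-9ss, 1719 at 11-12ss and 5371 in the whole embryo. The placode libraries were low, the PPR was high, and OEPs and the whole embryo lay close together. HAPLN1 fell 2.09-fold from the PPR to OEPs (2.02 to 2.17) and 4.62-fold from OEPs to 8-9ss (4.32 to 4.94). It then stood 1.25-fold up at 11-12ss, under the threshold. Against the whole embryo it was 2.48-fold higher in the PPR and 3.94-fold lower at 8-9ss (3.70 to 4.20).

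Its partner VCAN, the hyaluronan-binding proteoglycan, shared only the first of those falls. Its normalized counts were 24947 in the PPR, 11766 in OEPs, 11628 at 8-9ss, 14173 at 11-12ss and 10534 in the whole embryo, so the PPR alone stood apart. VCAN fell 2.13-fold from the PPR to OEPs (2.08 to 2.19), but only 1.69-fold with deposited RPKM. It was level from OEPs to 8-9ss at 1.0-fold (0.971 to 1.03), where HAPLN1 fell. The ratio of their RPKM, VCAN over HAPLN1, was accordingly 0.711 in the PPR, 0.845 in OEPs, 3.46 at 8-9ss, 3.40 at 11-12ss and 0.805 in the whole embryo. HAPLN1 thus exceeded VCAN per length in the PPR, OEPs and the whole embryo, and VCAN exceeded HAPLN1 in both placode libraries. The genes are neighbours on 1 chromosome with 0 genes between them in the RefSeq annotation of GRCg7b, a later assembly than the galGal4 build used for the counts.

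The fibrillins were highest in the PPR. FBN1, the main microfibril component of postnatal tissues, had normalized counts of 4099 in the PPR, 2503 in OEPs, 1794 at 8-9ss, 2112 at 11-12ss and 3332 in the whole embryo. It fell 1.65-fold from the PPR to OEPs (1.56 to 1.74), a call not made with deposited RPKM, and it was lower than the whole embryo in both placode libraries, by 1.86-fold (1.75 to 1.98) in the thickened placode and by 1.6-fold (1.51 to 1.70, not called with deposited RPKM) in the invaginating placode. The FBN2 symbol stood on XLOC_018457, whose description in the deposited table is Fibrillin-2, and on XLOC_009554, whose description there is Fibrillin-3. How reads that match several fibrillin genes were assigned is not given in the sources used here, so the share of each locus is uncertain.

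The pair of FBN2 loci behaved differently. XLOC_018457 had normalized counts of 7084 in the PPR, 4759 in OEPs, 2396 at 8-9ss, 2196 at 11-12ss and 2861 in the whole embryo. It fell 1.97-fold from OEPs to 8-9ss (1.86 to 2.09), while the step from the PPR to OEPs, 1.5-fold down (1.44 to 1.56), lay just under the threshold. That step was called with TMM or total count scaling, but was only 1.22-fold down with deposited RPKM. XLOC_009554 had 36676, 31840, 26753, 33402 and 30362 normalized counts in the same order and was called in none of the 8 comparisons. Its RPKM was 4.78 times that of XLOC_018457 in the PPR and 13.4 times at 11-12ss. XLOC_018457 and FN1 had the most similar profiles of any pair of member loci, at a distance of 0.19, and HAPLN1 and SMOC1 the least similar, at 7.32.

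Some markers of surface ectoderm also fell at the steps at which FN1, HAPLN1 and XLOC_018457 fell. The 6 genes of that list summed to 49814 normalized counts in the PPR, 47536 in OEPs, 28233 at 8-9ss and 23628 at 11-12ss, against 24652 in the whole embryo, while their summed RPKM was 744 in the PPR and 788 in OEPs. From the PPR to OEPs, GATA2 fell 6.21-fold (5.80 to 6.66) and GRHL3 3.14-fold (2.78 to 3.56). The keratin gene KRT19 was 1.33-fold up and TFAP2A 1.08-fold down, both under the threshold. Below the levels, KRT7 went from 0 to 97 counts and TP63 was 2.87-fold lower (2.13 to 3.96). From OEPs to 8-9ss, GATA2, GRHL3 and KRT19 fell, KRT19 by 1.83-fold (1.79 to 1.87). TFAP2A was 1.33-fold lower (1.29 to 1.37), under the threshold, and KRT7 and TP63 were below the levels. The endoderm list stood at 787 in the PPR and 4039 in OEPs. In normalized counts, APOA1 held 641 and 3288 of these sums and the transthyretin gene TTR 15.9 and 677. HHEX went the other way, from 130 to 74.4, below the levels. The part of these cells in the member differences was not tested.

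**Figure D3:**
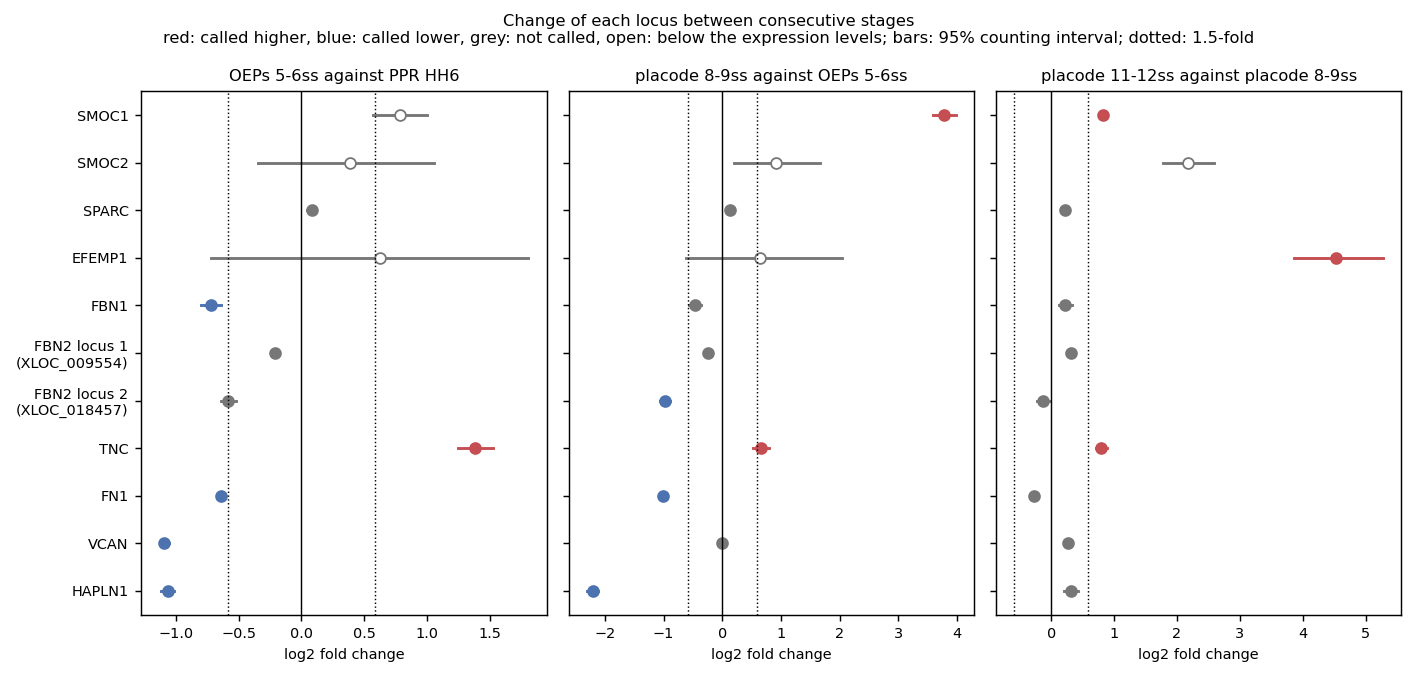
Log2 fold change (horizontal axis, own scale in each panel) of each of the 11 loci at the 3 consecutive steps, with 95% counting intervals as bars and 1.5-fold marked by dotted lines. Red points were called higher, blue lower, grey not called, and open points were below the expression levels. HAPLN1 (4.62-fold down) and SMOC1 (13.7-fold up) lay at opposite ends of the middle step.

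By step, the members' calls are given here beside the share of all tested loci that was called. From the PPR to OEPs, 8 of the 11 loci were past the levels, and TNC alone was higher while FBN1, FN1, VCAN and HAPLN1 were lower, 1 and 4 of 8. Over all loci tested at that step 18.0% were higher and 18.9% lower. From OEPs to 8-9ss, 9 loci were past the levels, with 2 higher (SMOC1 and TNC) and 3 lower (XLOC_018457, FN1 and HAPLN1), where 3.89% of all tested loci were higher and 4.99% lower. From 8-9ss to 11-12ss, 10 loci were past the levels and 3 were higher (SMOC1, EFEMP1 and TNC) with 0 lower, against 6.54% and 3.63% of all tested loci. Across both later steps together, 11-12ss against OEPs, 3 were higher and 3 lower of 10, against 7.97% and 7.32%. The calls of SMOC1 at the middle step and of EFEMP1 at the last step were part of what chose the set, so these shares are given without a reading of the difference from the background. SMOC2 at 11-12ss was 4.51-fold higher than at 8-9ss but is not among the calls.

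Over that longer interval, from OEPs to 11-12ss, SMOC1 was 24.4-fold higher (21.5 to 27.9), EFEMP1 35.9-fold higher (18.0 to 83.7) and TNC 2.74-fold higher (2.52 to 3.00). SMOC2 was 8.47-fold higher (5.52 to 13.6), below the levels. HAPLN1 was 3.71-fold lower (3.48 to 3.95), FN1 2.43-fold lower (2.40 to 2.46) and XLOC_018457 2.16-fold lower (2.03 to 2.30). The other 4 loci, SPARC, FBN1, XLOC_009554 and VCAN, differed by at most 1.28-fold.

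**Figure D4:**
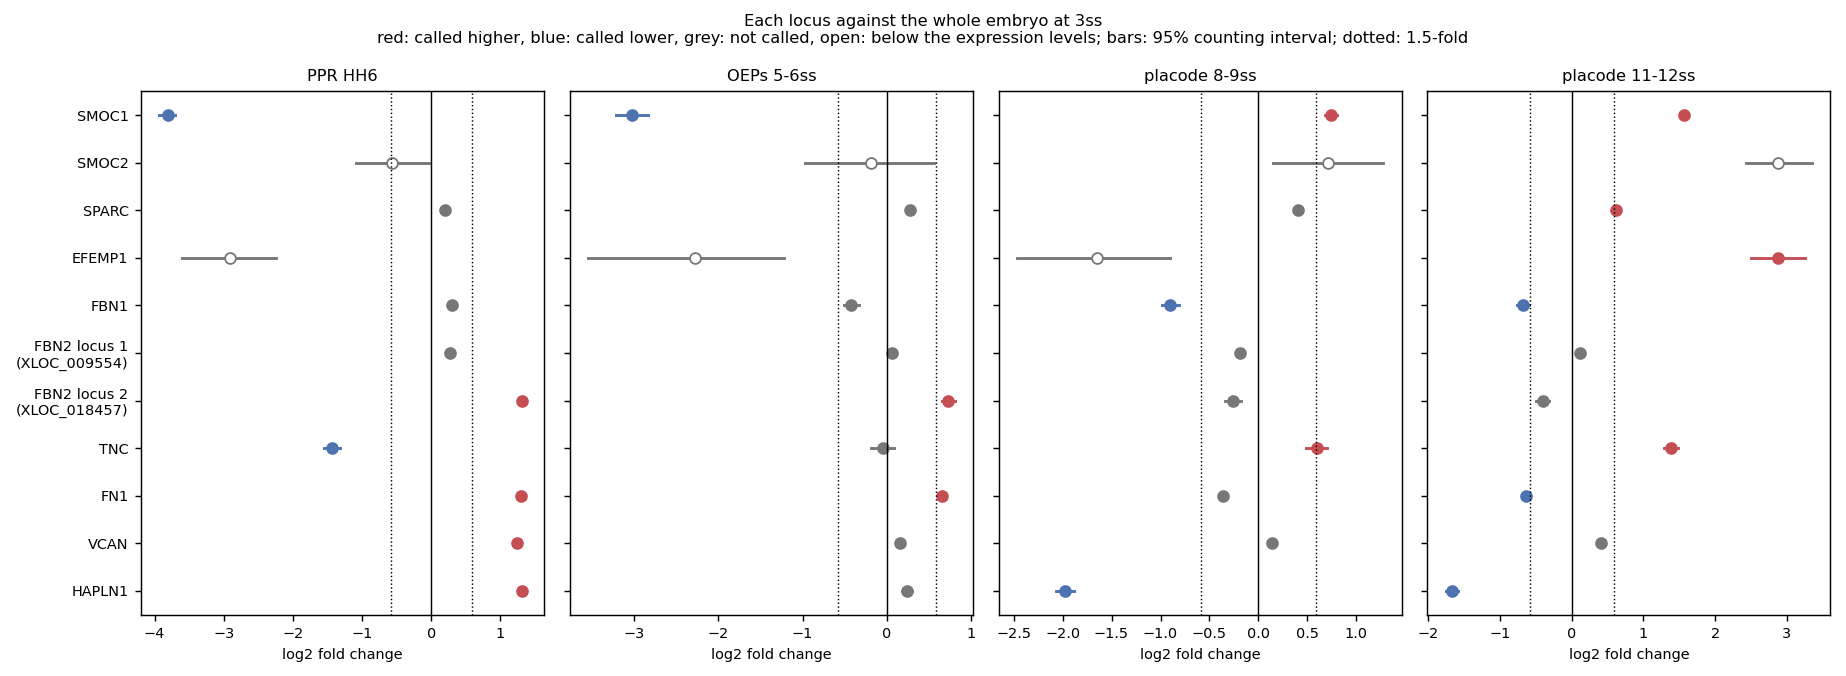
Log2 fold change (horizontal axis, own scale in each panel) of each of the 11 loci in the 4 ectoderm libraries against the same whole-embryo library, with 95% counting intervals as bars, 1.5-fold marked by dotted lines, and colours for called higher (red), called lower (blue), not called (grey) and below the expression levels (open). SMOC1 and TNC moved from the left of 0 in the PPR to the right at 11-12ss, and FN1 and HAPLN1 moved the other way.

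Against the whole embryo, the members called higher in the PPR were not those called higher in the placode. How often this held over all loci was not counted, and SMOC1 and EFEMP1 were chosen for their late rise, so it is description only. In the PPR, XLOC_018457, FN1, VCAN and HAPLN1 were higher, by 2.37- to 2.48-fold, and SMOC1 and TNC were lower, which makes 4 and 2 of 9 loci past the levels where 15.7% and 12.9% of all tested loci were called. In OEPs, XLOC_018457 (1.65-fold, 1.57 to 1.75) and FN1 were higher and SMOC1 was lower, 2 and 1 of 9, where 13.9% and 10.2% were called. At 8-9ss, SMOC1 and TNC were higher and FBN1 and HAPLN1 lower, 2 and 2 of 9, where the shares of all tested loci were 15.0% and 13.1%. At 11-12ss, SMOC1, EFEMP1, TNC and SPARC were higher and FBN1, FN1 and HAPLN1 lower (HAPLN1 by 3.17-fold, 2.98 to 3.37), 4 and 3 of 10, where the shares were 14.7% and 12.8%. These 4 comparisons share 1 whole-embryo library, so its values enter each of them, and they differ in stage as well as in tissue.

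The whole embryo holds tissues other than the dissected ectoderm. The notochord list (3 of 5 genes with a locus) summed to 51392 normalized counts there and to 516 to 740 in the ectoderm libraries, and the endoderm list to 10391 against 757 to 4039. The part of these tissues in the level of each member in the whole embryo was not tested.

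**Figure D5:**
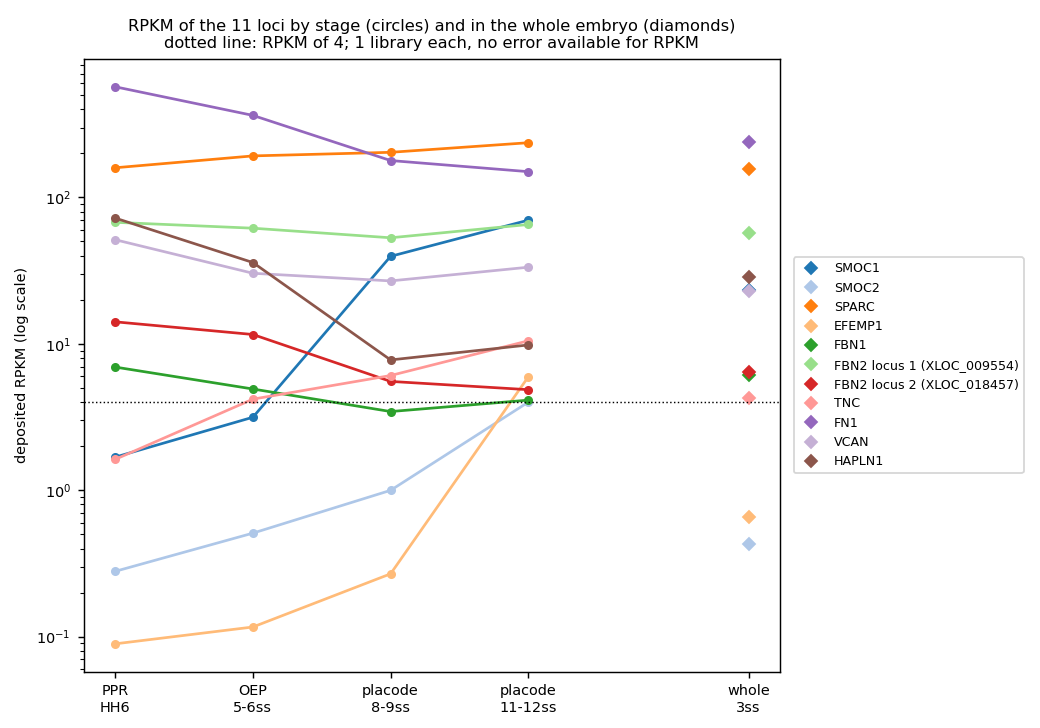
Deposited RPKM (vertical axis, log scale) of the 11 loci in the 4 ectoderm libraries (circles joined by stage) and the whole embryo (diamonds), 1 library each with no error available, and a dotted line at an RPKM of 4. FN1 fell from 570 to 150 and was passed by SPARC at 8-9ss, while SMOC1 climbed from 1.68 to 69.9.

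Per length, the order of the members was rearranged. FN1 led in the PPR with an RPKM of 570, followed by SPARC at 159, HAPLN1 at 72.3, XLOC_009554 at 67.6 and VCAN at 51.4. At 11-12ss SPARC led with 236, followed by FN1 at 150, SMOC1 at 69.9, XLOC_009554 at 65.3 and VCAN at 33.4. RPKM carries no replicate error here, so neighbours as close as HAPLN1 and XLOC_009554 in the PPR, or SMOC1 and XLOC_009554 at 11-12ss, are not separated. FN1 made up 60.3% of the summed RPKM of the 11 loci in the PPR, 51.3% in OEPs, 34.0% at 8-9ss, 25.2% at 11-12ss and 43.7% in the whole embryo. SPARC made up 16.9% in the PPR and 39.8% at 11-12ss. SMOC1 made up 0.178% and 11.8% in the same libraries. The summed RPKM itself was 945 in the PPR, 708 in OEPs, 525 at 8-9ss, 594 at 11-12ss and 545 in the whole embryo.

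Over all 5 libraries, the highest normalized count exceeded the lowest by 55.7-fold for EFEMP1, 42.4-fold for SMOC1, 11.1-fold for SMOC2, 9.71-fold for HAPLN1 and 7.20-fold for TNC. The ratio was 3.77 for FN1, 3.23 for XLOC_018457, 2.37 for VCAN and 2.28 for FBN1, and it was lowest for SPARC at 1.56 and XLOC_009554 at 1.37. Without the whole embryo the ratio was 1.36 for SPARC and 2.15 for VCAN and was as before for the others. For the 9413 loci expressed in at least 1 of the 4 ectoderm libraries, the median ratio over those 4 libraries was 1.57. The 90th percentile was 4.06 and the 99th was 70.8, which is above the ratios of EFEMP1 and SMOC1.

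Other matrix genes were counted from 5 lists of 191 genes, of which 156 had a locus. From the PPR to OEPs, 23 loci were higher and 20 lower of 73 past the levels, where 18.0% and 18.9% of all tested loci were called. From OEPs to 8-9ss, 5 were higher and 13 lower of 61, beside 3.89% and 4.99% of all tested loci. From 8-9ss to 11-12ss, 14 were higher and 5 lower of 67, beside 6.54% and 3.63%. The same shares are the background for the counts of each list given next. The median log2 fold changes of the lists together were -0.10, -0.10 and 0.20 at these steps, against 0.00 over all loci at each.

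The list closest to the members in kind was that of other matricellular and adhesive glycoproteins. It gave 2 higher and 6 lower of 12 at the first step, 1 and 3 of 11 at the second, and 6 and 0 of 14 at the third. Its median log2 fold changes, over the wider sets of 37, 31 and 35 loci, were -0.51, -0.13 and 0.52. RSPO3, a secreted enhancer of WNT signalling, fell 20.4-fold from the PPR to OEPs (15.4 to 27.6) and rose 5.83-fold from 8-9ss to 11-12ss (4.79 to 7.13). MATN4, a matrilin, rose 3.99-fold at the last step (3.53 to 4.52). OTOG, which encodes otogelin of the acellular membranes over inner ear sensory cells, rose 3.45-fold from OEPs to 8-9ss (3.01 to 3.98), and SPON1, which encodes F-spondin, fell 1.89-fold (1.78 to 2.01).

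Among the partners of hyaluronan and other proteoglycans, 4 were higher and 4 lower of 16 at the first step, 1 and 1 of 13 at the second and 3 and 2 of 16 at the third. BCAN, the hyaluronan-binding brevican, rose 4.65-fold from the PPR to OEPs (4.17 to 5.18), the step at which VCAN and HAPLN1 fell. HAS2, which makes hyaluronan, fell 1.57-fold from OEPs to 11-12ss (1.52 to 1.63). LUM rose 5.89-fold (4.6 to 7.63) and the syndecan SDC3 rose 4.43-fold (3.96 to 4.97) at the last step.

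The microfibril and elastic fibre list gave 4 higher and 0 lower of 10 at the first step, where FBN1 fell, then 1 and 3 of 9 and 2 and 1 of 10. ELN, the elastin gene, rose 9.18-fold from the PPR to OEPs (8.41 to 10.01), and MFAP2, whose product is a small protein of fibrillin microfibrils, rose 2.23-fold (2.17 to 2.29) and then 1.57-fold to 8-9ss (1.53 to 1.62). LTBP2, a latent TGF-beta binding protein that attaches to fibrillin, fell 2.05-fold from OEPs to 8-9ss (1.91 to 2.20). FBLN1, a fibulin like EFEMP1, rose 1.52-fold at the last step (1.44 to 1.61), a step at which LTBP1 rose 1.70-fold (1.63 to 1.77).

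Basement membrane glycoproteins gave 1 higher and 4 lower of 10 at the first step, 0 and 3 of 9 at the second and 2 and 0 of 9 at the third. DAG1, the laminin receptor dystroglycan, fell 2.45-fold from OEPs to 8-9ss (2.39 to 2.52). FREM2, a protein that joins epithelium to the matrix beneath, fell 2.23-fold at the first step (2.06 to 2.43) and rose 2.22-fold at the last (2.05 to 2.41). Matrix remodelling enzymes gave 12 higher and 6 lower of 25 at the first step, 2 and 3 of 19 at the second and 1 and 2 of 18 at the third, and all tested loci were likewise called most often at the first step. MMP2, a gelatinase, rose 22.8-fold from the PPR to OEPs (19.2 to 27.1) and 2.48-fold to 8-9ss (2.28 to 2.69), and the secreted protease gene HTRA1 fell 18.7-fold from the PPR to OEPs (16.5 to 21.4).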

How the data were processed

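Poly(A) RNA libraries were made with a TruSeq V2 kit, which does not mark strand, so reads of overlapping genes cannot be told apart. The authors aligned reads with TopHat2 to galGal4, merged Cufflinks assemblies into loci, and deposited raw counts per locus (easyRNAseq) and RPKM per locus (Cuffdiff). Libraries were read as 50-base single or 100-base paired ends, and which was which is not given in the sources used here. Where compared libraries differ in format, that difference cannot be told apart from stage or tissue. Its part in the fold changes was not tested. Size factors (median of ratios) were computed on the libraries compared, and counts below 3 were raised to 3 for fold changes. Fold changes and intervals were computed in Python 3.11.15 with scipy 1.17.1 and checked on simulated data. TMM factors came from edgeR 4.0.16. Alternatives were other scalings, deposited RPKM, other thresholds and thinning to the smallest library. The members, the lists and their markers were chosen with earlier results of these data known. Named genes were all members, up to 2 called genes each way per list and step, and the 3 profiles nearest to SMOC1 and EFEMP1. No sequence is shown.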

Additional observations from a re-analysis of the deposited data

Results flagged for a closer look

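For 4 members the difference from the whole embryo was called higher at 1 stage and lower at another. Other loci, such as FBN1 and EFEMP1, changed sign without a call in both directions. How many of all loci were called both ways was not counted. The same whole-embryo library enters both values of each pair, each stage was 1 library, and the difference between the stages was not tested. SMOC1 stood at a log2 fold change of -3.81 in the PPR and 1.57 at 11-12ss. TNC stood at -1.43 in the PPR and 1.39 at 11-12ss. FN1 went the other way, from 1.30 in the PPR to -0.64 at 11-12ss. HAPLN1 also went that way, from 1.31 in the PPR to -1.98 at 8-9ss.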

How the results depend on the processing

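Each condition was 1 library, so no value has a replicate error and none could be left out in turn. No paired analysis was possible because each group has a single library. Of 80 counts of called members under alternatives, 74 stayed within 1.5-fold of the reported count. That score is lenient for such small counts and does not ask which members were called. For example, thinning lost EFEMP1 from 8-9ss to 11-12ss, 2 higher in place of 3, and still lay within it. In each of the 8 comparisons at least 1 alternative changed which members were called. Among 448 member fold changes that were recomputed, 78 lay outside the counting interval of the reported value. A reversal was scored only for fold changes that had been called, and 0 of those reversed. With the threshold raised to 2-fold the called members numbered 3 in place of 5 from the PPR to OEPs. They numbered 3 in place of 5 from OEPs to 8-9ss, and 1 in place of 3 from 8-9ss to 11-12ss. Over all tested loci the calls at the first step went from 1665 higher and 1746 lower to 860 and 778 of 9253. At the second they went from 322 and 413 to 121 and 117 of 8281, and at the third from 558 and 310 to 154 and 59 of 8529. Against the whole embryo the called members numbered 1 in place of 3 in OEPs and 1 in place of 4 at 8-9ss. At 11-12ss they numbered 4 in place of 7. The calls over all tested loci were then 522 higher and 485 lower of 8704 in OEPs. They were 572 and 590 of 8949 at 8-9ss, and 658 and 550 of 9004 at 11-12ss. From OEPs to 11-12ss, and in the PPR against the whole embryo, the same members were called at 2-fold as before. SMOC2 at 11-12ss was called against the whole embryo once the RPKM level was dropped. In the PPR against the whole embryo, deposited RPKM turned 1486 loci higher and 1223 lower into 1301 and 1601, with the same number of members called. EFEMP1 and SMOC2 before 11-12ss are limited by depth.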
